A study of Drosophila melanogaster with 46 samples.

Results

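Springer is a long terminal repeat (LTR) retrotransposon of the gypsy group, the retrovirus-like elements that also include gypsy, ZAM and Idefix. It is 1 of the 124 transposable elements (TEs) in the deposited small RNA table of the fly Drosophila melanogaster, and it was taken from that table by its name. It was selected on its sense and antisense levels in all 6 libraries: most of its small RNAs are sense, and its antisense small RNAs are much higher in the CG9754 precipitate. Those values are therefore given as a description, with no test. The cells were ovarian somatic cells (OSC), a line grown in culture that derives from the follicle cells of the fly ovary. Small RNAs were sequenced from 2 libraries of input RNA, 2 of a Piwi immunoprecipitate (Piwi-IP) and 2 of a CG9754 immunoprecipitate (CG9754-IP), and the labels name no knockdown for these 6 libraries. The treatment text that these libraries share with the rest of the series does describe siRNA transfection of the cells, without naming an siRNA for them, so it is not known whether the cells used here were transfected. Another 40 samples belong to the series and were not analysed here. The table holds TEs and no genes, so the cell type was not checked against markers.

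PIWI-interacting RNAs (piRNAs) are small RNAs that guide Piwi, a nuclear Argonaute protein, to the transcripts of TEs. A piRNA that is antisense to a TE can pair with the transcript of that TE, whereas a sense small RNA has the sequence of the transcript itself. In ovarian somatic cells many piRNAs come from single-stranded clusters such as flamenco and are antisense to gypsy-group elements. CG9754, also named Silencio, acts downstream of Piwi in the silencing of transcription and connects Piwi to the heterochromatin machinery. Springer is a gypsy-group element whose small RNAs are mostly on the other strand.

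Values are RPM, the reads of a TE and strand scaled to a library total of 1000000. The library totals implied by the values were 12493500 to 26138400 reads. Springer was well covered at this depth, with 71597 to 240870 sense reads and 7125 to 52357 antisense reads in a library. How reads that match several TEs were assigned is not given in the sources used here. The labels do not say if paired libraries are from separate cultures, so each SD and p-value measures only the spread between these libraries, which may be technical. For a p-value this spread is partly pooled over TEs. The sample labels of the series name no mock precipitate, so background in the precipitates could not be assessed.

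The sense small RNAs of springer had 5461 and 5509 RPM in the input libraries, 6002 and 5731 in Piwi-IP, whereas CG9754-IP had 9215 and 9319. Both CG9754-IP libraries were above all 4 other libraries, and those of input and Piwi-IP lay close together without overlap. The means for input, Piwi-IP and CG9754-IP were 5485 ± 34.3, 5866 ± 192 and 9267 ± 73.1 RPM (mean ± SD, n = 2, as for all means that follow). The CG9754-IP mean was 1.58 times that of Piwi-IP and 1.69 times that of input.

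The antisense small RNAs of springer had 549 and 575 RPM in input, 535 and 570.3 in Piwi-IP, whereas CG9754-IP had 1905 and 2634. The input and Piwi-IP libraries overlapped, and both CG9754-IP libraries were above all 4 of them. The means were 562 ± 18.8, 553 ± 24.9 and 2269 ± 516 RPM. The CG9754-IP mean was 4.11 times that of Piwi-IP and 4.04 times that of input. The CG9754-IP libraries thus differed much more from each other on the antisense strand than on the sense strand. Replicate 2 had 1.38 times the antisense level of replicate 1 and 1.01 times its sense level. Over the 75 TEs whose antisense mean reached 10 RPM, the median of this ratio was 0.909, and 1 of these TEs had a higher ratio than springer. With replicate 1 of CG9754-IP alone, the lower of the pair, the antisense log2 difference from Piwi-IP was 1.78, and with replicate 2 alone it was 2.25.

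**Figure D1:**
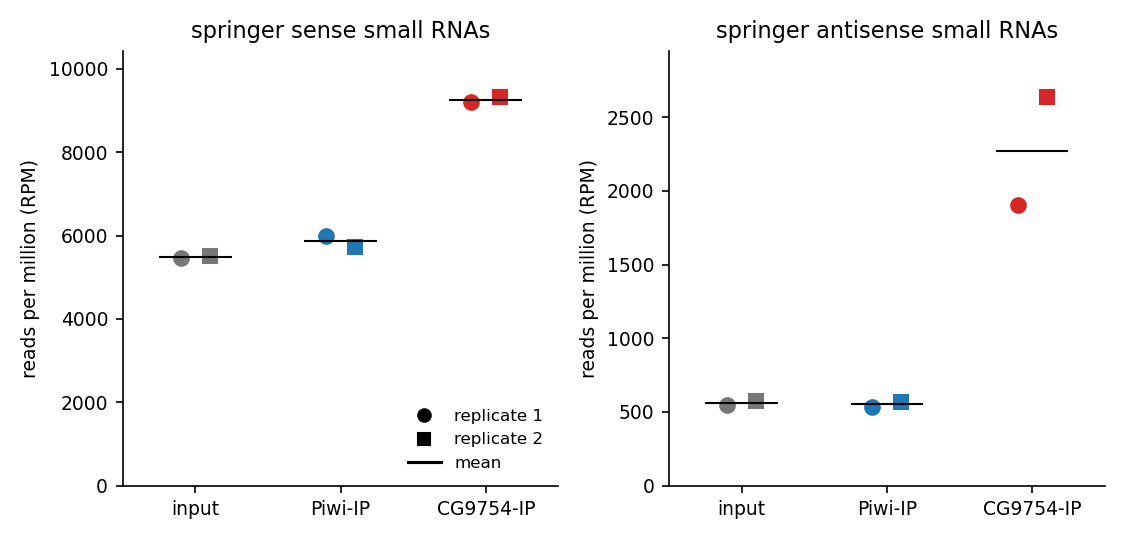
Small RNA levels of springer in RPM on the sense strand (left) and the antisense strand (right), with 1 point per library and a line at the mean of the 2 libraries of each group. The antisense libraries of CG9754-IP lie at 1905 and 2634 RPM, above the 535 to 575 RPM of the other 4 libraries, while the sense libraries rise from between 5461 and 6002 RPM to 9215 and 9319 RPM.

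As both strands were higher in CG9754-IP but to different degrees, the strand balance of springer was lower there. Sense reads made up 90.9% and 90.5% of the springer small RNAs in input, 91.8% and 90.9% in Piwi-IP, but 82.9% and 78.0% in CG9754-IP. The widest Wilson 95% interval of these percentages was that of Piwi-IP replicate 2, from 90.7% to 91.1%. Counting error is therefore small beside the gap between the CG9754-IP libraries, with intervals of 82.7% to 83.0% and 77.8% to 78.1%. Such intervals hold for counting error alone, as the labels mention no molecular identifiers and reads may be PCR copies of each other. The means for input, Piwi-IP and CG9754-IP were 90.7% ± 0.229, 91.4% ± 0.612 and 80.4% ± 3.47. For each antisense read there were 9.76 ± 0.266, 10.6 ± 0.827 and 4.19 ± 0.920 sense reads in the same order. Of the RPM that springer gained between Piwi-IP and CG9754-IP, 33.5% were antisense.

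Springer alone held close to 45% of the sense small RNAs of all TEs in the table. In the order input, Piwi-IP and CG9754-IP, its part of the sense sum was 44.6% ± 0.159, 44.6% ± 1.02 and 49.9% ± 1.83. Its part of the antisense sum was 0.266% ± 0.00918, 0.233% ± 0.0121 and 1.28% ± 0.320. The sense sum of all TEs was 5444 RPM higher in CG9754-IP than in Piwi-IP, and springer made up 3401 RPM of that, or 62.5%. The antisense sum went the other way: it was lower by 59210.5 RPM in CG9754-IP, while springer was higher by 1717. With springer left out, antisense reads were 96.9% ± 0.0420, 97.0% ± 0.0445 and 95.0% ± 0.181 of the TE reads. The difference between the precipitates in this percentage was 4.20 points over all TEs and 2.05 points without springer.

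By RPM per element, not per length (the lengths of the elements were not used here), springer ranked 1 of 124 on the sense strand in all 6 libraries. Copia, a retrotransposon of another superfamily, followed it with 1609 ± 43.3, 1651 ± 63.8 and 2273 ± 201 RPM in the 3 groups. The libraries of springer and copia did not overlap in any group, with springer 3.41, 3.55 and 4.08 times as high. On the antisense strand springer ranked 33 in each input and Piwi-IP library, and 23 and 20 in the CG9754-IP libraries. Its neighbours in input and Piwi-IP were the telomeric element TART-B above it, at 627 ± 7.76 and 760.0 ± 9.84 RPM, and mdg3 below it, at 382 ± 0.789 and 423 ± 28.8 RPM. Neither overlapped springer. In CG9754-IP the neighbours were the F-element at 2563 ± 340.4 RPM and ZAM at 2046 ± 163, and the libraries of both overlapped those of springer, so these ranks are not separated beyond the spread. On the sum of both strands springer ranked 11 to 13 in input and Piwi-IP and 5 in both CG9754-IP libraries.

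The comparison of Piwi-IP with input asks whether springer small RNAs make up the same share of the reads in the Piwi precipitate as in the cell's RNA. Since springer was chosen on its levels in all 6 libraries, its differences here are again a description, with no test. On the log2(RPM + 1) scale its antisense level differed by −0.02, with libraries that overlapped. Its sense level differed by 0.10, and both Piwi-IP libraries were above both input libraries. That sense difference was −0.067 when libraries were rescaled to 1 common total over all TEs and −0.061 by the median ratio over the TEs, so its sign depended on the scaling. The log2 ratio of sense to antisense, which depends little on the scaling, differed by 0.12.

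The TEs were tested with limma on log2(RPM + 1), with all 6 libraries in 1 fit and Benjamini-Hochberg adjustment over all TEs tested. Springer was among the TEs fitted, so shares over all TEs include it here and below. Its own calls are not reported, and no support for springer is drawn from these shares. An exact permutation test of 2 libraries against 2 cannot give a p below 0.333. In the same comparison limma called 1.33% of the 75 TEs tested on the antisense strand, 3.77% of the 53 tested on the sense strand and 0% of the 89 tested for the strand ratio (0 TEs, with 12 at an unadjusted p under 0.05). Of the other gypsy-group elements listed, 14 of 16 are in the table. None was called on the antisense strand (0 of 13 tested by limma, 4 at an unadjusted p under 0.05, beside 19 of all 75 TEs) or on the sense strand (0 of 7, 2 at an unadjusted p under 0.05, beside 7 of all 53 TEs). Their antisense log2 differences ran from 0.10 to 0.44 with a median of 0.18, close to the median of 0.16 over all TEs tested, and springer at −0.02 lay below all 13. With libraries rescaled to a common TE total the medians were 0.01 and 0.00 and springer had −0.19. These counts rested on CG9754-IP, since its libraries enter the pooled spread: 12 of 13 rose on the antisense strand without CG9754-IP replicate 1, without CG9754-IP replicate 2, or with the input and Piwi-IP libraries alone. In each of these fits 58.7% of all 75 TEs rose too and 1.33% fell.

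Set against Piwi-IP, springer had a higher RPM in CG9754-IP on both strands, by a log2 difference of 0.66 on the sense strand and 2.02 on the antisense strand. Against input the differences were 0.76 and 1.99; both comparisons share the CG9754-IP libraries. Rescaling to the same TE total gave larger sense and antisense differences from Piwi-IP, 1.01 and 2.37, since the TE total was lower in CG9754-IP. With springer included, limma called 9.33% of the 75 TEs higher on the antisense strand and 53.3% lower. On the sense strand 45.3% of the 53 TEs were called higher and 22.6% lower. Over all TEs tested the median log2 difference was −0.38 on the antisense strand and 0.15 on the sense strand. Of the 44 other TEs tested on both strands, 4.55% were called higher on both. These were copia and FB4, a foldback DNA element (Repbase_FB4 in the table). FB4 was lower in Piwi-IP than in input, by −0.91 sense and −1.04 antisense. Its CG9754-IP levels differed from input by only 0.10 and 0.34. A further 14 of the 44 were higher on the sense strand and lower on the antisense strand. The number of other TEs higher on both strands was 7 with libraries rescaled to a common TE total and 7 without CG9754-IP replicate 1, and copia and FB4 were among them in both.

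The small RNAs of the other listed gypsy-group elements tested were mostly antisense, except those of Transpac. Numbered gypsy elements are not on the list. Of these, gypsy12 was 98.7% sense in input, while the others that reached a summed mean of 10 RPM had an antisense majority. On the antisense strand, 10 of the 13 listed elements tested fell in CG9754-IP against Piwi-IP by limma and 0 rose. Among all 75 TEs 53.3% fell and 9.33% rose. The median log2 difference was −0.67 for the listed elements and −0.38 over all TEs tested. With a common TE total 6 fell and 2 rose, beside 21.3% of all 75 TEs in each direction. Rover fell from 15671 ± 450 to 7520 ± 552 RPM (−1.06, adjusted p = 2.56e-04). Tirant had a lower value (−1.34, adjusted p = 0.0161), but its libraries held only 47.1 and 47.9 RPM in Piwi-IP and 12.8 and 25.5 in CG9754-IP, and it lost the call after rescaling to the same TE total (adjusted p = 0.0645) or without either Piwi-IP library. The members with the highest values did not pass. Gypsy, the element after which the group is named, had a log2 difference of 0.15 (adjusted p = 0.267) and passed with a common TE total (0.49, adjusted p = 0.0251) or without CG9754-IP replicate 1 (0.30, adjusted p = 3.68e-05). Without CG9754-IP replicate 2 its sign turned (−0.01). Transpac, an element with mostly sense small RNAs, had 0.37 (adjusted p = 0.0801) and passed after either rescaling (0.72 and 0.59) or without CG9754-IP replicate 2 (0.56, adjusted p = 0.00317).

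On the sense strand 45.3% of all 53 TEs rose and 22.6% fell, with a median log2 difference of 0.15. Of the 7 listed gypsy-group elements tested, 6 rose and 1 fell, with a median of 2.55. HMS-Beagle and rover passed the filter only through their level in CG9754-IP, so that no support is drawn from this count; with no filter 10 of 14 rose and 1 fell, beside 32.0% and 13.1% of all 122 TEs. HMS-Beagle, a further gypsy-group element, had 6.02 ± 0.715, 5.89 ± 0.300 and 55.7 ± 8.11 RPM in input, Piwi-IP and CG9754-IP, given with no test for that reason. Gypsy rose by 3.44 (adjusted p = 2.51e-18). Quasimodo rose by 1.56 (adjusted p = 3.62e-06), with CG9754-IP libraries that were far apart at 102 and 36.9 RPM. The difference was 0.83 without CG9754-IP replicate 1 and 2.28 without CG9754-IP replicate 2. Its limma p-value rests partly on the spread of other TEs, so the size of this rise is uncertain. Transpac was the member that fell, from 692 and 704 RPM in Piwi-IP to 446 and 331 RPM in CG9754-IP (−0.86, adjusted p = 2.53e-07). The sense difference of springer, 0.66, lay between that of Transpac and those of the 6 others that passed the filter. Among members below the filter, accord (0.49), Tirant (0.12) and Burdock (0.09) had lower values than springer. Higher values were those of gtwin (3.06), Idefix (2.43), ZAM (2.27) and opus (1.25).

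The strand ratio of springer and of Transpac was lower in CG9754-IP, and that of the other listed group members tested was higher. The sense percentage of gypsy12, which is not on the list, was lower too, at 99.1% in Piwi-IP and 97.8% in CG9754-IP without overlap of the libraries. Over all TEs limma called 58.4% of 89 TEs with a higher ratio of sense to antisense in CG9754-IP than in Piwi-IP and 20.2% with a lower one. Of the 13 other gypsy-group elements tested, 12 had a higher ratio and 1, Transpac, a lower one, and these counts were the same under both rescalings, without any 1 library and with the replicate block. The largest differences were those of rover (3.80, adjusted p = 3.74e-06) and Idefix (3.32, adjusted p = 2.29e-05), and the smallest rise that of accord (1.21, adjusted p = 0.00345). Some of these sense levels were near 0. From Piwi-IP to CG9754-IP, Idefix had 1.59 and 12.8 RPM and accord 0.36 and 0.97. Tirant had 0 in Piwi-IP and 0.09 in CG9754-IP, so its higher ratio comes mostly from its antisense fall. With 10 RPM in place of 1 added before the log, the counts were still 12 and 1. The differences were then smaller, at 2.88 for rover, 1.87 for Idefix and 0.76 for accord. Transpac had −1.23 (adjusted p = 3.04e-04), and the value of springer was −1.36. In input, sense reads were 93.6% of the small RNAs of Transpac, but only 0.59% of those of gypsy and 0.0639% of those of rover. In CG9754-IP they were 85.9%, 4.17% and 0.622%. Burdock was below the filter, and its CG9754-IP libraries, with 63.1% and 25.9% sense, lay above and below the Piwi-IP libraries at 37.3% and 33.1%.

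**Figure D2:**
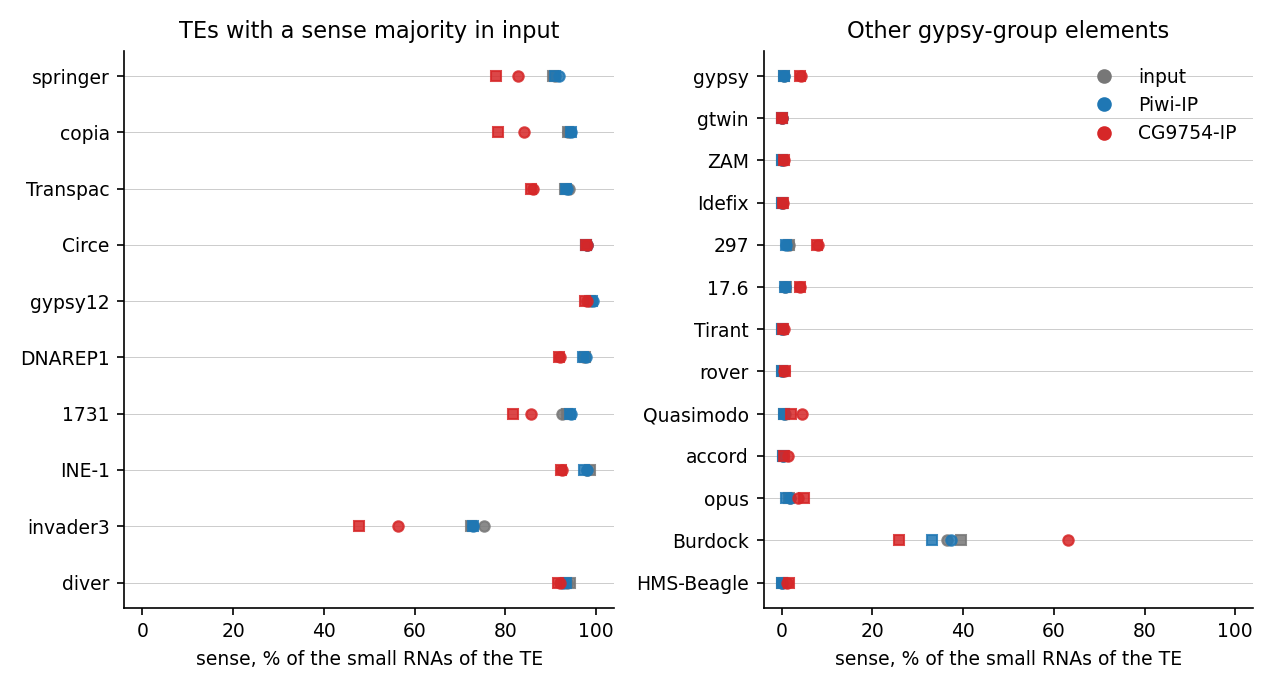
Sense small RNAs as a percentage of both strands for springer and the next 9 TEs by level with a sense majority in input (left), and for the other gypsy-group elements (right), with 1 point per library (circles for replicate 1, squares for replicate 2). The springer libraries lie between 90.5% and 91.8% in input and Piwi-IP and at 82.9% and 78.0% in CG9754-IP, and Transpac moves the same way, while gypsy moves up from near 0.

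The sense majority of springer was shared with 16 other TEs that had at least 100 RPM in input. The 9 most abundant of these were copia, Transpac, Circe, gypsy12, DNAREP1 (Repbase_DNAREP1 in the table), 1731, INE-1, invader3 and diver. Some of them are related, such as copia and 1731, so the 16 are not independent of each other. Among all 59 TEs of that level, springer included, the sense percentage was lower in both CG9754-IP libraries than in both Piwi-IP libraries for 20.3% and higher for 69.5%. Among the 16 it was lower for 11 and higher for 2. Among the 42 TEs with an antisense majority it was lower for 0 and higher for 39. Copia went from 94.5% to 81.3% and 1731, a copia-type element, from 94.4% to 83.7%, changes of −13.2 and −10.7 percentage points beside −11.0 for springer. The sense level of 1731 was lower in CG9754-IP than in Piwi-IP (log2 difference −0.78) and its antisense level higher (0.88), whereas both strands of springer and copia were higher. Invader3 went from 72.9% to 52.0%, with log2 differences of −1.36 sense and −0.07 antisense. Circe was at 98.0% and 97.9%, and the libraries of the groups overlapped.

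The strand with fewer small RNAs in input was therefore compared with the other strand of the same TE, a comparison made after the values had been seen. For springer the minority strand, antisense, changed by 2.02 on the log2 scale between Piwi-IP and CG9754-IP and the majority strand by 0.66. Among the other 88 TEs with a summed mean of at least 10 RPM, the minority strand had the more positive change in 74, or 84.1%, with a median excess of 0.92. That was so for 18 of 24 with a sense majority and 56 of 64 with an antisense majority. A minority strand near 0 RPM cannot fall far on this scale, so the count does not show that minority strands rose. For Tirant (sense 0.12, antisense −1.34) and Helena (−0.01, −0.76) mostly the majority strand moved. For gypsy (3.44, 0.15) it was mostly the minority strand. In Piwi-IP against input, a comparison that shares the Piwi-IP libraries, the minority strand had the more positive change in 25 of 88, or 28.4%, with a median of −0.07. These were 11 of 24 with a sense majority and 14 of 64 with an antisense majority. On the majority strand, 5 of the 24 other TEs with a sense majority had, like springer, a sense log2 difference above 0, and 19 had one below 0, with a median of −0.33. FB4 (1.01, but 0.10 against input) was above springer, and copia (0.46), 1360 (0.28), Cr1a (0.15) and diver2 (0.028) were between springer and 0. Invader2 (−1.87) and invader3 (−1.36) had the lowest values.

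**Figure D3:**
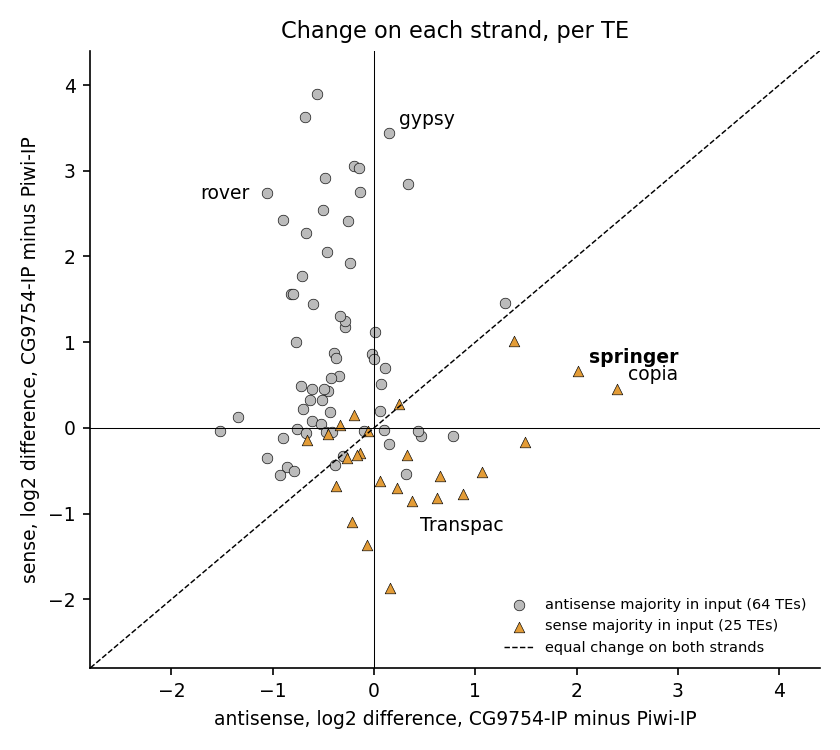
Log2 difference of CG9754-IP minus Piwi-IP on the antisense strand (x axis) and on the sense strand (y axis) for 89 TEs, with 1 point per TE, marked by the strand that held more of its small RNAs in input. Springer (antisense 2.02, sense 0.66) and copia (2.40, 0.46) lie right of the line of equal change and above 0 on both axes, while gypsy and rover lie above the line.

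Copia was the TE whose pattern was most like that of springer. Likeness was measured as the root mean square difference of log2(RPM + 1) over 12 values, both strands in 6 libraries, after centring each strand on its own mean. Among the 44 other TEs whose mean reached 10 RPM on each strand, this difference was 0.151 for copia, 0.314 for DNAREP1, 0.586 for FB4, 0.593 for gypsy3 and 0.612 for 1360, with a median of 0.870. Copia antisense levels were 103 and 107 RPM in input, 93.9 and 100.1 in Piwi-IP, and 453 and 590.3 in CG9754-IP. Both CG9754-IP libraries were above the other 4, and replicate 2 was the higher one, as for springer. Copia sense levels were 1579 and 1640.1 RPM in input, 1605 and 1696 in Piwi-IP, and 2415 and 2131 in CG9754-IP. Here the order of the CG9754-IP libraries was the reverse of that of springer. DNAREP1, a DNA repeat, had 6.51 and 7.36 RPM antisense in Piwi-IP against 19.5 and 23.0 in CG9754-IP, and its sense libraries overlapped between the groups. The remaining 3 were much less like springer: FB4 was lower in Piwi-IP than in input on both strands, and the antisense log2 differences of gypsy3 and 1360 between CG9754-IP and Piwi-IP were 0.11 and 0.25.

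**Figure D4:**
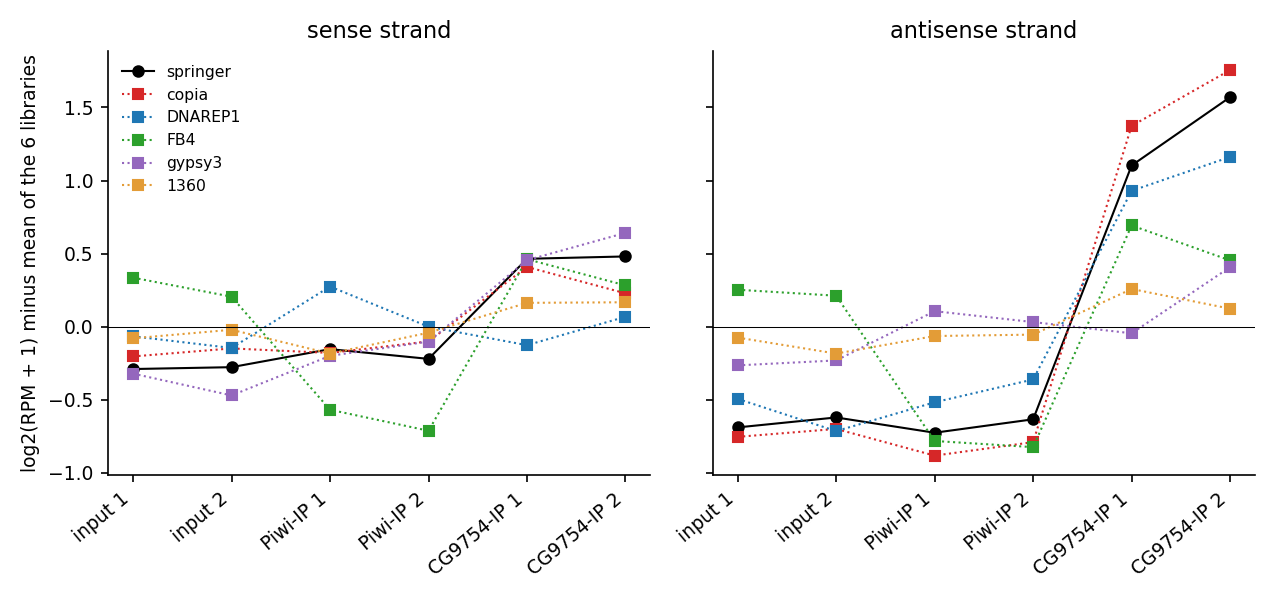
Centred levels, log2(RPM + 1) minus the mean of the 6 libraries, of springer and the 5 TEs most like it on the sense strand (left) and the antisense strand (right). Lines only join the libraries of 1 TE, and copia lies closest to springer, with a root mean square difference of 0.151 against 0.870 for the median TE.

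The number of reference insertions of springer was near the middle of its group. In the FlyBase identifiers of the reference gene name table, 22 of 5734 named TE insertions carry the name springer, against 3 to 88 for the 14 other gypsy-group elements, with a median of 21.5. Of the 124 TEs of the small RNA table, 101 matched this table by name. These are insertions of the reference strain, and those of the cell line were not measured in the libraries used here.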

How the data were processed

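Sense and antisense small RNA values of 124 TEs were taken from 6 libraries, a pair each for input RNA, the Piwi and the CG9754 precipitate. No unit stands in the file. The deposited values were taken to be RPM, scaled by the authors to 1000000 reads, because 100% of them in each library were whole multiples of 1 step (within 0.02 reads). Per the submitters' processing notes, cutadapt 1.0, Bowtie 0.12.7, SAMtools 0.1.16 and bedtools 2.16.1 were used, with build dm3; their roles and settings are not given in the sources used here. Related TEs may share reads, which could move their values together. The second deposited table (10 columns of windows in flamenco and 20A) names no TE and was not used.

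Values as log2(RPM + 1) were tested, where the mean of the 6 libraries reached 10 RPM, with limma 3.58.1 (lmFit, eBayes with a trend, R 4.3.3), two-sided, with an adjusted p under 0.05 as the threshold. Limma pools the spread over groups and TEs, so a p-value rests partly on other groups. The strand ratio used the sum of both strands for the filter. The code was tested on simulated data. Other values were computed with Python 3.11.15, numpy 2.4.6, pandas 2.3.3 and scipy 1.17.1, and plots with matplotlib 3.10.9.

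Springer, the gypsy-group list and the tests were chosen with earlier results of these data known. The limma test planned for springer in Piwi-IP against input is not reported, since its levels in these libraries were among the values it was chosen on. The list is gypsy, gtwin, ZAM, Idefix, 297, 17.6, Tirant, rover, Quasimodo, accord, opus, nomad, Burdock, HMS-Beagle, Transpac and Tabor; nomad and Tabor were not analysed here. Named TEs are the 2 highest and 2 lowest list members per quantity, the 10 most abundant TEs with a sense majority in input, the neighbours of springer in rank and the 5 TEs most like it; Burdock, Cr1a, diver2 and invader2 are named besides, after their values were seen.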

Additional observations from a re-analysis of the deposited data

How the results depend on the processing

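Of the 330 values recomputed under the alternatives for 30 results, 298 kept their direction and their side of the threshold, or stayed within the replicate spread. That count is no measure of robustness. A difference cannot move under an alternative that leaves the compared libraries unchanged, such as another filter or the loss of a library from the third group. The 30 results also include fits of springer and of HMS-Beagle that are not reported here as tests. Leaving out 1 library moved the log2 difference of springer between Piwi-IP and input between −0.070 and 0.021 on the antisense strand and between 0.063 and 0.13 on the sense strand. It moved the number of other gypsy-group elements called in that comparison between 0 and 12 on the antisense strand and between 0 and 2 on the sense strand, and the antisense difference of gypsy between CG9754-IP and Piwi-IP between −0.012 and 0.30. With the compared groups alone the Piwi-IP counts were 12 and 2. After rescaling to a common TE total and by the median ratio, the sense difference of springer was −0.067 and −0.061 and the sense count 1 and 1. With the replicate block the sense count was 1, and the block moved no other count of the group by over 1.5 times. Whether same-numbered libraries share an origin is not known. The correlation of their deviations from the group means was −0.13 to 0.26 across TEs, which cannot decide this. In CG9754-IP against Piwi-IP, 11 gypsy-group elements were called on the sense strand with no filter and 2 with a filter of 100 RPM, under which 2 were tested. Rescaled to the same TE total, springer differed by 2.37 antisense and 1.01 sense from Piwi-IP and by 0.94 sense from input; by the median ratio the sense values were 0.88 and 0.82. With a pseudocount of 10 RPM, the minority strand had the more positive change in 16 of 88 TEs in Piwi-IP against input, an alternative chosen after seeing the data. The cause of these shifts was not tested. The planned count test on recovered reads was not run. Depth limits springer little; the number of libraries, 2 a group, limits every comparison.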
